A study of Homo sapiens with 22 samples.

Results

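RNA from growing SH-SY5Y cells that carried a short hairpin RNA against the CASC15-004 transcript was set against RNA from the same cells with a scrambled hairpin, before any differentiation. The members are the 5 day 0 libraries that the sample titles assign to these conditions, of 22 libraries in the series. SH-SY5Y is an established human neuroblastoma line, a model of the sympathetic neuroblast. The knockdown cells, called sh004 here, gave 1 library with hairpin sh1 and 1 with hairpin sh2, both of batch 2. The control cells gave 3 libraries, 1 each of batches 1, 2 and 3, with a scrambled hairpin that has no mammalian target. All of them are stable lines made by lentiviral transduction and puromycin selection, so the controls carry the vector and the drug resistance too, and all were grown in medium with 10% serum. Total RNA was depleted of ribosomal RNA and sequenced as stranded libraries. Nothing in the labels says whether libraries of a batch came from separate cultures, and the p-values therefore reflect how far these libraries vary, which may be technical.

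CASC15 is a long non-coding RNA gene on chromosome 6, in a region where common variants are associated with the risk of neuroblastoma. It makes several transcripts, and the hairpins were designed against one of them. A hairpin RNA is cut by the cell into a short guide strand, which directs Argonaute proteins to RNAs that pair with it. Pairing of guide bases 2 to 8, the seed, can also lower other RNAs, which is why a pair of hairpins with different seeds is used.

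The target sites of both hairpins are shown because they fix which part of CASC15 was attacked and which seeds the cells received. Capitals mark the 7 target bases that lie opposite guide bases 2 to 8.

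sh1: caggctgttcccaGGGATTTa

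sh2: taggaataccttaCATCCAAt

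Each site is 21 bases long and was found on the plus strand of GRCh38, sh1 at chr6:22146977-22146997 and sh2 at chr6:22146898-22146918. Both lie in exon 1 of 2 of the 8 annotated CASC15 transcripts, CASC15-204 (3969 bases, 4 exons) and CASC15-202 (1449 bases, 11 exons). CASC15 was the 1 gene with a full match among 206694 transcripts searched. In CASC15-204 the sh1 site covers bases 324 to 344 and the sh2 site bases 245 to 265.

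The deposited values are RPKM, reads per kilobase of gene and per 1 M assigned reads, and differences are given on the scale of log2(RPKM + 0.5). CASC15 stood at 1.16 RPKM with sh1 and 1.14 with sh2, against 1.52, 1.31 and 2.38 RPKM in the controls of batches 1, 2 and 3. Both sh004 libraries lay below all 3 controls, but the batch 2 control was close to them. The log2 difference was -0.41 (SE 0.27, limma adjusted p = 1.00, lower in 2 of 2 libraries) against all controls and -0.13 against the batch 2 control. The RPKM adds up all isoforms of the gene, so the level of the targeted transcript is not resolved. At day 7 of retinoic acid, in other libraries, CASC15 was at 1.31 and 1.48 RPKM with sh004 and at 3.33 and 3.26 RPKM in controls (log2 difference -1.01, SE 0.29, adjusted p = 0.520). A direct test of whether the difference was larger at day 7 gave -0.60 (adjusted p = 1.00).

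No gene passed the test at day 0. limma called 0 of 19461 genes at a Benjamini-Hochberg adjusted p under 0.05 (0.0%), with 378 at an unadjusted p under 0.05 (1.94%), of which 106 were higher (0.545%) and 272 lower (1.4%) in sh004. limma-voom on recovered reads also called 0, with 397 at an unadjusted p under 0.05. Against the batch 2 control alone 0 were called, with 257 at an unadjusted p under 0.05 (1.32%), and with batch as a block 0 were called, with 719 (3.69%). If no gene differed, a fraction of 0.05 would on average reach a p under 0.05, and the shares given here are smaller. The median 95% interval was ± 0.59 on the log2 scale against all controls and ± 0.82 against the batch 2 control. With batch as a block it was ± 0.47. These medians are over 12366 genes with a mean RPKM of at least 2. Without the block, differences between batches are part of the spread behind the intervals and p-values. In each fit, differences smaller than its interval were not detectable for a typical gene even before adjustment over all genes. A call needed larger ones. Every difference given below for day 0 is a value, not a call.

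Libraries of different batches differed in more genes than the libraries of batch 2 did among themselves. Libraries held 27.9 and 36.2 M assigned reads with sh004 and 11.9 to 31.8 M in the controls, with the batch 1 control the lowest. sh1 and sh2 were at least 2-fold apart for 779 genes (4.00% of those tested), and they were 2-fold apart from the batch 2 control for 974 and 790 genes. The batch 2 and batch 3 controls were 2-fold apart for 1784 genes, and the batch 1 control was 2-fold apart from the other 4 libraries for 3951 to 5271 genes. The batch 1 control also summed to 998 RPKM over the small nuclear RNA list, against 72.9 to 120 RPKM in the other 4 libraries. RPKM values name each control, and for the leading genes and most lists the difference from the batch 2 control stands beside that from all controls.

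**Figure D1:**
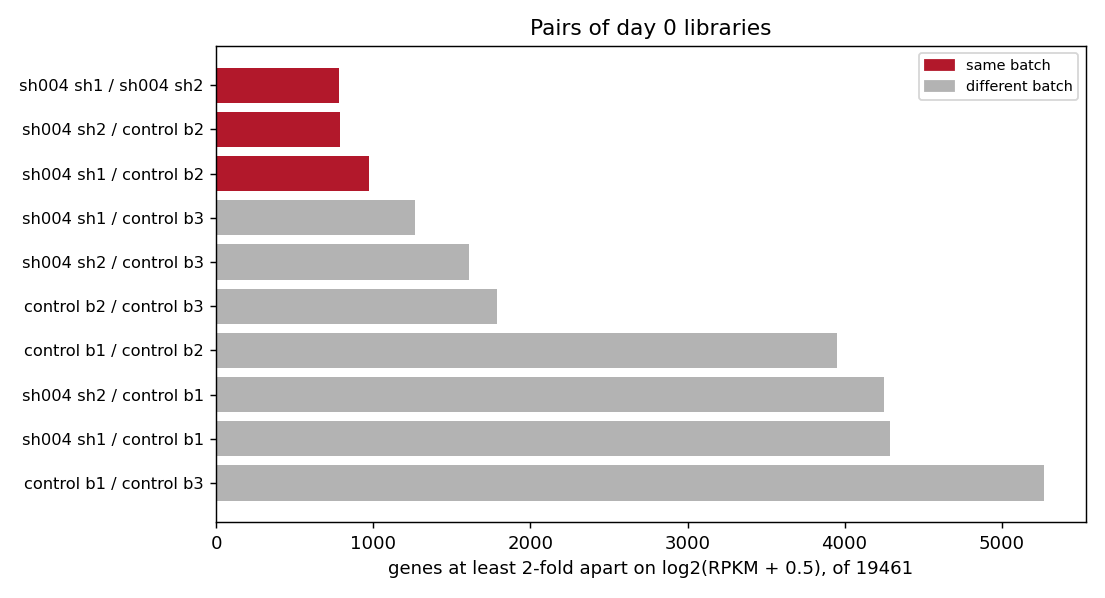
Each bar gives the number of genes, of 19461 tested, that differ at least 2-fold between a pair of day 0 libraries on the log2(RPKM + 0.5) scale, with pairs of the same batch in red and pairs of different batches in grey (b1, b2 and b3 are batches). The 3 pairs within batch 2 have 779 to 974 such genes, and every pair across batches has 1266 or more.

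The cells had the profile of sympathetic neuroblasts in both groups. HAND2, a transcription factor of sympathetic neuron development, was at 269 and 231 RPKM with sh004 and at 235, 275 and 224 RPKM in controls. DBH, which makes noradrenaline, was at 469 and 329 RPKM with sh004 and at 492, 555 and 193 RPKM in controls. TH, the first enzyme of that pathway, reached RPKM 1 in too few libraries to be tested. It was at 0.210 and 0.0255 RPKM with sh004 and at 0.130, 1.57 and 0.0110 RPKM in controls. None of the 6 immune markers reached the tested level, and their summed level was 0.424 to 0.487 RPKM with sh004 and 0.591 to 0.671 RPKM in controls. Of 7 Schwann cell and glial markers, SOX10 was below 0.1 RPKM with sh004 and at most 0.136 RPKM in controls, FOXD3 and CDH19 had 0 reads in all 5 libraries, and S100B was at 2.26 and 1.83 RPKM with sh004 and at 1.39, 1.97 and 1.73 RPKM in controls. Of 8 fibroblast and endothelial markers, PECAM1 had 0 reads in all 5 libraries, but 3 fibroblast markers were expressed. PDGFRB was at 10.1 and 10.3 RPKM with sh004 and at 13.8, 10.6 and 18.3 RPKM in controls, PDGFRA at 5.0045 and 9.07 RPKM with sh004 and at 7.37, 4.16 and 8.497 RPKM in controls, and LUM at 7.14 and 7.82 RPKM with sh004 and at 5.51, 3.93 and 14.6 RPKM in controls. The 8 markers summed to 22.6 and 27.8 RPKM with sh004 and to 27.02, 19.02 and 41.8 RPKM in controls, and the 7 to 3.12 and 2.62 RPKM with sh004 and to 2.31, 3.30 and 2.59 RPKM in controls. The groups overlapped in both sums.

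TULP3, a tubby-family protein that carries membrane receptors into the primary cilium, had the smallest p of all genes and is the clearest difference of the day 0 comparison. It was at 19.9 RPKM with sh1 and 23.9 RPKM with sh2, against 9.34, 7.87 and 8.39 RPKM in the controls of batches 1, 2 and 3. The sh004 libraries lay more than 2-fold above every control, and the 3 controls lay close together despite their batches. The log2 difference was 1.31 (SE 0.20, limma adjusted p = 0.722, higher in 2 of 2 libraries) against all controls and 1.41 against the batch 2 control. RHNO1, a checkpoint gene that overlaps TULP3 on the same strand in the annotation, was at 24.5 and 25.2 RPKM with sh004 and at 23.1, 20.5 and 22.3 RPKM in controls. RHNO1 was looked up after the TULP3 values were known.

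COX7C, a small nuclear-encoded subunit of cytochrome c oxidase in the respiratory chain, was at 58.9 and 61.7 RPKM with sh004 and at 23.5, 36.8 and 25.2 RPKM in controls. The groups did not overlap, and the batch 2 control was the nearest of the 3. The log2 difference was 1.10 (SE 0.29, limma adjusted p = 1.00) against all controls and 0.71 against the batch 2 control. PLPPR3, a membrane protein of the phospholipid phosphatase-related family that acts in axon growth and branching, was at 2.01 RPKM with sh1 and 5.11 RPKM with sh2, against 14.9, 19.8 and 15.8 RPKM in controls. Both hairpins lay far below every control, sh1 further than sh2. The log2 difference was -2.20 (SE 0.51, adjusted p = 1.00) against all controls and -2.43 against the batch 2 control. PRPH encodes peripherin, the intermediate filament of peripheral neurons. It was at 2.87 and 2.45 RPKM with sh004 and at 6.25, 7.93 and 6.22 RPKM in controls, again with no overlap, and its log2 difference was -1.20 (SE 0.28, adjusted p = 1.00) against all controls and -1.42 against the batch 2 control.

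**Figure D2:**
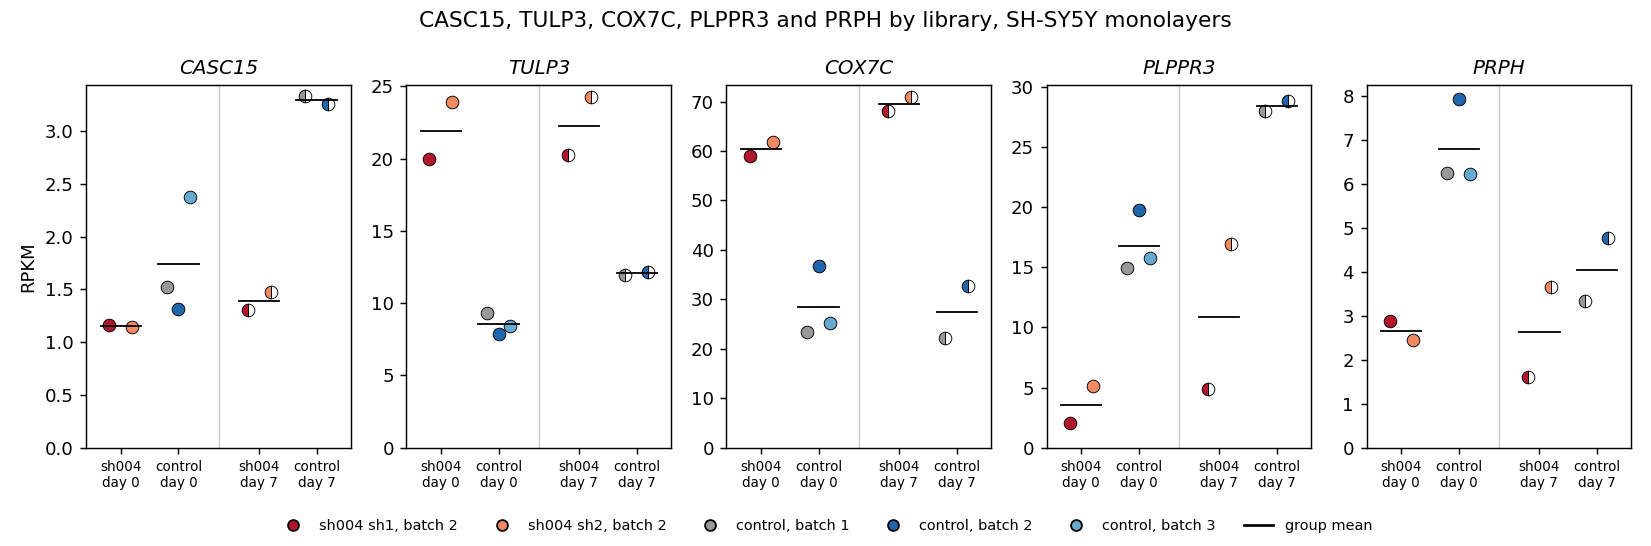
RPKM of CASC15, TULP3, COX7C, PLPPR3 and PRPH in every sh004 and control monolayer library at day 0 (filled points) and day 7 of retinoic acid (points filled on the left side only), with a line at each group mean and each axis starting at 0. At day 0 the sh004 points lie above all controls for TULP3 and COX7C and below all controls for CASC15, PLPPR3 and PRPH.

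For a wider view, the 10 genes per direction with the smallest p were taken among those with a mean RPKM of at least 2, no overlap between the groups and a log2 difference of at least 0.5 of each hairpin from the batch 2 control. Without overlap alone, 1491 genes were higher (7.66% of those tested) and 1971 lower (10.1%) in sh004. With the difference from the batch 2 control added, 135 were higher (0.694%) and 341 lower (1.75%), and 57 and 139 of these had a symbol and the mean level required. Values of the 20 named genes are a description of how they were chosen and carry no test of their own. The 4 genes above are among them.

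Of the other higher genes, JAK1, the tyrosine kinase of cytokine receptors, had its lowest level in the batch 2 control. It was at 47.7 and 46.4 RPKM with sh004 and at 35.4, 22.6 and 31.7 RPKM in controls, a log2 difference of 0.67 against all controls and 1.04 against the batch 2 control. ASS1, which joins citrulline and aspartate on the way to arginine, was at 5.33 and 3.21 RPKM with sh004 and at 0.966, 0.453 and 1.61 RPKM in controls. Both hairpins were above all controls, with a log2 difference of 1.70 against all controls and 2.29 against the batch 2 control, and the SE of 0.59 was the widest of the 10 genes. MGAT4B, which adds branches to N-glycans, was at 36.9 and 36.2 RPKM with sh004 and at 25.4, 22.6 and 24.1 RPKM in controls. CPOX, an enzyme of haem synthesis, was at 12.3 and 11.1 RPKM with sh004 and at 8.79, 7.47 and 6.81 RPKM in controls. In both of these genes each group was tight, and the log2 differences were 0.60 and 0.58 against all controls and 0.68 and 0.61 against the batch 2 control. The ubiquitin ligase UBE3C, the endosomal chloride-proton exchanger CLCN3 and the phosphatase DUSP22 had log2 differences of 0.46, 0.61 and 0.42 against all controls and of 0.62, 0.75 and 0.63 against the batch 2 control. SNORD99, a small nucleolar RNA inside the host gene SNHG12, had a log2 difference of 1.24 (1.08 against the batch 2 control) that rests on 14 reads in each sh004 library and 2, 6 and 4 reads in controls. MGAT4B overlaps SQSTM1 on the other strand, and the strand setting of the read counting is not given in the sources used here, so reads of overlapping genes may not be separated. COX7C and the ribosomal protein genes have processed pseudogenes, between which reads may be split.

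Of the other lower genes, MAPK11, the beta form of the stress kinase p38, was at 8.24 and 8.51 RPKM with sh004 and at 18.3, 31.7 and 18.1 RPKM in controls. The hairpins gave nearly the same level, and each lay more than 2-fold below every control. The log2 difference was -1.34 (SE 0.33, limma adjusted p = 1.00) against all controls and -1.86 against the batch 2 control. BASP1, a membrane protein of growth cones, was at 5.60 RPKM with sh1 and 11.4 RPKM with sh2, against 33.5, 24.5 and 19.3 RPKM in controls (log2 difference -1.59, SE 0.43, and -1.56 against the batch 2 control). CNTFR, the receptor subunit that binds ciliary neurotrophic factor, was at 63.8 and 38.7 RPKM with sh004 and at 97.8, 91.6 and 91.3 RPKM in controls (log2 difference -0.91, and -0.88 against the batch 2 control). The controls of this gene lay close together, and the hairpins did not. KCNMB4, the beta subunit of large-conductance potassium channels, had a log2 difference of -0.71 against all controls and -0.65 against the batch 2 control. The sulfotransferase GAL3ST4 was at -1.14 and -0.89, DENND6B, an exchange factor of Rab GTPases, at -0.72 and -0.72, and the pseudogene SLC26A10P at -0.66 and -0.68, in the same order. SLC26A10P overlaps B4GALNT1 on the other strand.

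**Figure D3:**
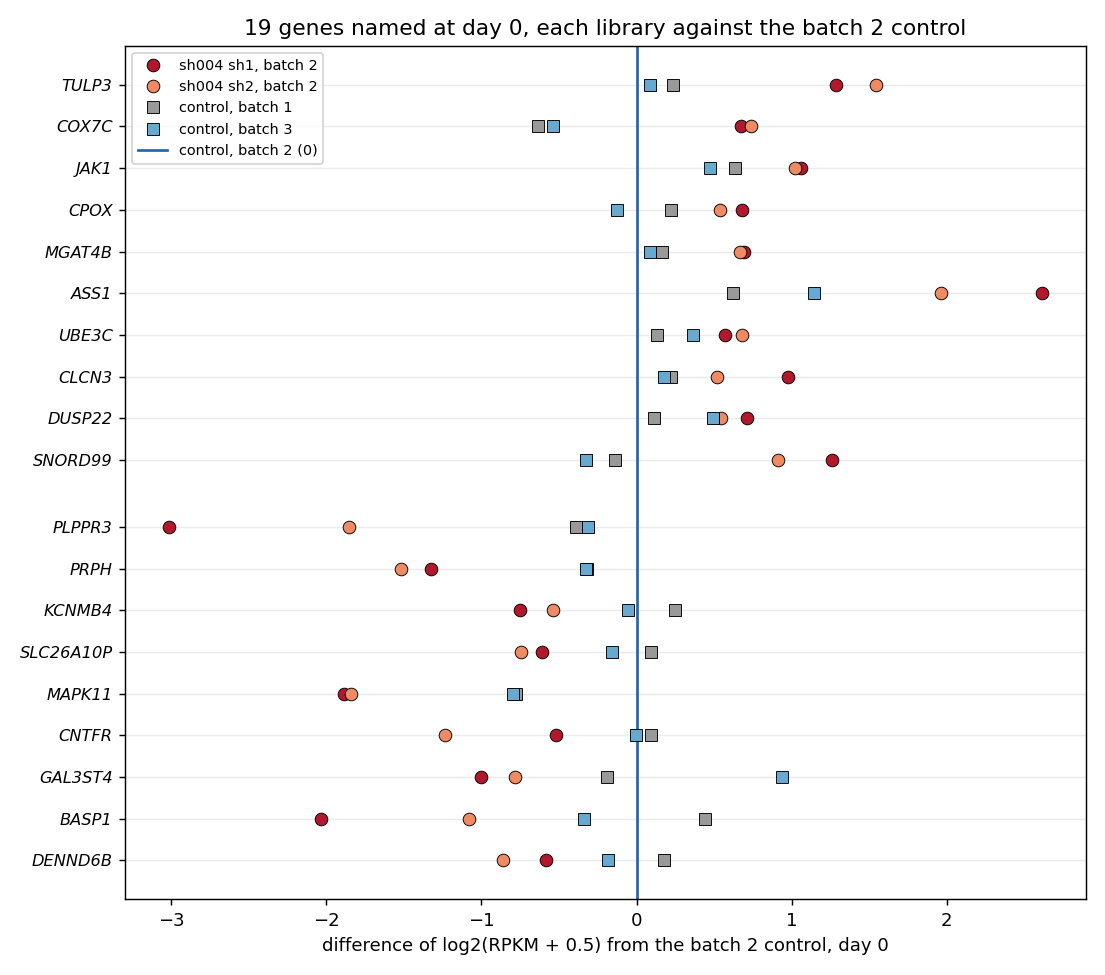
Difference of log2(RPKM + 0.5) from the batch 2 control at day 0 for 19 of the 20 named genes, with the sh004 libraries as circles, the batch 1 and batch 3 controls as squares and the batch 2 control as the line at 0. The genes were chosen for circles that lie beyond all controls, and the picture shows how far the controls themselves spread, for example between 0 and 1.14 for ASS1 and between 0 and -0.80 for MAPK11.

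The seed letters of the hairpins were looked for in all annotated transcripts of each gene. GGGATTT, the letters opposite the sh1 seed, was in 24.7% of all tested genes with a transcript, in 1 of the 10 named lower genes and in 4 of the 10 named higher genes. CATCCAA, the letters opposite the sh2 seed, was in 19.0% of all tested genes, in 1 of the 10 lower and in 3 of the 10 higher genes. Over the 139 lower genes that met the rule the shares were 22.3% for sh1 and 30.2% for sh2, and over the 57 higher genes 31.6% and 22.8%. Longer transcripts hold such letters more often, and a match is not a site.

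Genes of the pathways around the leading genes were read as lists, and over all lists limma called 0 members. Of 59 tested cilium genes, 2 were above all controls, TULP3 and the BBSome subunit BBS5, and 7 were below, IFT140, IFT27, TULP4, BBS12, TTC8, KIF17 and PTCH1. These are 3.39% and 11.9% of the list, beside 7.66% and 10.1% of all genes, and the list median was 0.00 (0.04 against the batch 2 control). IFT140, a subunit of the complex that TULP3 binds, was at 4.80 and 4.04 RPKM with sh004 and at 5.77, 6.07 and 7.29 RPKM in controls. Of 77 respiratory chain genes, 62 were higher (80.5%, beside 40.9% of all genes) and 11 were above all controls (14.3%, beside 7.66%). The median was 0.14 against all controls but -0.02 against the batch 2 control. COX7C thus stood at 0.71 against the batch 2 control in a list whose middle was near 0.

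Besides PLPPR3, the related genes PLPPR2, PLPPR4, PLPPR5, PLPP1, PLPP2 and PLPP3 were tested, and in all 6 the groups overlapped. PLPPR2 was at 21.7 and 17.5 RPKM with sh004 and at 22.6, 23.7 and 19.8 RPKM in controls. PLPPR4 was at 6.43 and 6.68 RPKM with sh004 and at 5.53, 9.05 and 4.04 RPKM in controls.

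The neuronal cytoskeleton list lay lower than the batch 2 control. Of 26 genes, 22 were below the batch 2 control with both hairpins (84.6%, beside 34.0% of all genes), and the list median was -0.70 against that control and -0.31 against all controls. KIF5A, a kinesin of axonal transport, was at 5.31 and 4.86 RPKM with sh004 and at 7.11, 10.8 and 7.74 RPKM in controls, with no overlap. MAP1B, a microtubule-associated protein of growing axons, was at 66.0 and 52.8 RPKM with sh004 and at 137, 95.6 and 99.1 RPKM in controls. STMN2, which keeps growth cone microtubules dynamic, was at 84.9 and 119 RPKM with sh004 and at 172, 217 and 203 RPKM in controls. These 3 genes with PRPH and BASP1 make up the 5 of 26 that lay below every control (19.2%, beside 10.1%). Other members overlapped between the groups. INA, a neurofilament protein, was at 14.4 and 17.8 RPKM with sh004 and at 33.4, 58.1 and 13.3 RPKM in controls, and CRMP1, a mediator of semaphorin signals, at 15.3 and 32.2 RPKM with sh004 and at 34.7, 80.2 and 29.2 RPKM in controls. Both were highest in the batch 2 control. Relative to the batch 2 control the list median was -0.78 with sh1 and -0.48 with sh2, against -0.29 in the batch 1 control and -0.74 in the batch 3 control, so that sh2 lay inside and sh1 just beyond the range of the controls.

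Noradrenergic and mesenchymal genes, which mark the alternative states of neuroblastoma cells, showed the same arrangement. Of 23 mesenchymal genes, 18 were above the batch 2 control with both hairpins (78.3%, beside 28.7%), with a list median of 0.57 against that control and 0.05 against all controls. SNAI2, a transcription factor of the mesenchymal state, was at 6.64 and 7.54 RPKM with sh004 and at 4.31, 2.59 and 6.52 RPKM in controls. Relative to the batch 2 control the list median was 0.54 with sh1 and 0.47 with sh2, against 0.53 in the batch 1 control and 1.10 in the batch 3 control, so that both hairpins lay inside the range of the controls. In RNA of a whole culture, fewer cells of a state and less RNA per cell cannot be told apart. Of 25 noradrenergic genes, 19 were below the batch 2 control with both hairpins (76.0%, beside 34.0%) and 4 below all controls (16.0%, beside 10.1%), with a list median of -0.34 against the batch 2 control and 0.03 against all controls. Relative to the batch 2 control the list median was -0.25 with sh1 and -0.33 with sh2, against -0.17 in the batch 1 control and -0.50 in the batch 3 control, so that both hairpins lay inside the range of the controls. MAOA, which breaks down noradrenaline, was at 3.98 and 3.36 RPKM with sh004 and at 6.15, 16.0 and 12.2 RPKM in controls, a log2 difference of -1.43 (SE 0.41, adjusted p = 1.00) and -1.99 against the batch 2 control. NPY, the sympathetic neuropeptide, was the 1 member above all controls (4% of the list, beside 7.66% of all genes). It was at 196 and 273 RPKM with sh004 and at 121, 68.7 and 167 RPKM in controls. Its log2 difference against all controls was 1.05 (SE 0.84) at day 0 and -1.08 at day 7.

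**Figure D4:**
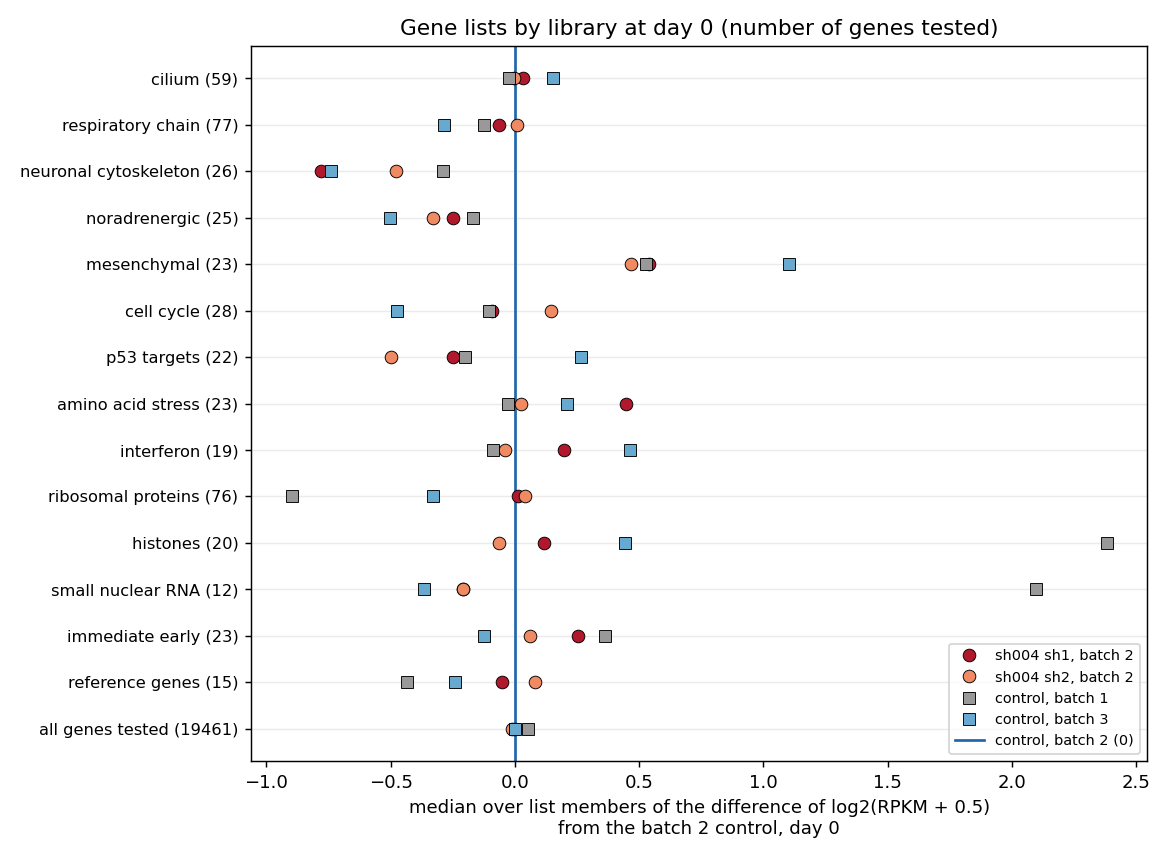
Median over the tested members of each gene list of the difference of log2(RPKM + 0.5) from the batch 2 control at day 0, with the sh004 libraries as circles, the batch 1 and batch 3 controls as squares and the number of tested genes in brackets. For the neuronal cytoskeleton, noradrenergic and mesenchymal lists all 4 other libraries lie on the same side of the batch 2 control, and the histone and small nuclear RNA medians of the batch 1 control lie more than 2 log2 units above it.

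Targets of p53, the transcription factor of the DNA damage response, had lower medians in sh004 by either reading of the controls. Of 22 genes, 20 were lower than the control mean (90.9%, beside 58.8% of all genes), 9 lay below all 3 controls (40.9%, beside 10.1%) and 15 lay below the batch 2 control with both hairpins (68.2%, beside 34.0%). The list median was -0.34 against all controls and -0.36 against the batch 2 control, beside -0.07 and 0.00 over all genes, and -0.17 with batch as a block. It was below 0 under all 25 alternatives, from -0.51 to -0.17. Those that only left out libraries other than the day 0 sh004 and control libraries could not change it. Quantile scaling alone moves the median of all genes by 0.16. Relative to the batch 2 control the list median was -0.25 with sh1 and -0.50 with sh2, against -0.20 in the batch 1 control and 0.27 in the batch 3 control. limma called 0 members. On the lower side 4 of the 22 had an unadjusted p under 0.05, beside 272 of 19461 genes (1.4%).

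DDB2, a damage sensor of nucleotide excision repair, was at 12.4 and 15.5 RPKM with sh004 and at 19.6, 22.2 and 24.6 RPKM in controls (log2 difference -0.65, SE 0.20, limma adjusted p = 1.00). BBC3, the pro-apoptotic protein PUMA, was at 3.17 and 2.99 RPKM with sh004 and at 5.72, 5.87 and 6.24 RPKM in controls (log2 difference -0.85, SE 0.33). TP53INP1, a stress-induced cofactor of p53, was at 5.77 and 3.62 RPKM with sh004 and at 6.79, 7.52 and 12.4 RPKM in controls. In these 3 genes the groups did not overlap, and the log2 differences from the batch 2 control were -0.66, -0.83 and -0.66. SPATA18, ZMAT3, PHLDA3, BAX, FDXR and PLK3 were the other members below every control. CDKN1A, the p21 inhibitor of cyclin-dependent kinases, was at 31.1 and 16.8 RPKM with sh004 and at 25.1, 63.9 and 59.4 RPKM in controls, so that the batch 1 control overlapped with the hairpins. MDM2, the ligase that degrades p53, was at 13.0 and 11.7 RPKM with sh004 and at 11.8, 11.5 and 15.9 RPKM in controls, and the 2 members on the higher side were TP53I3 and GADD45A.

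**Figure D5:**
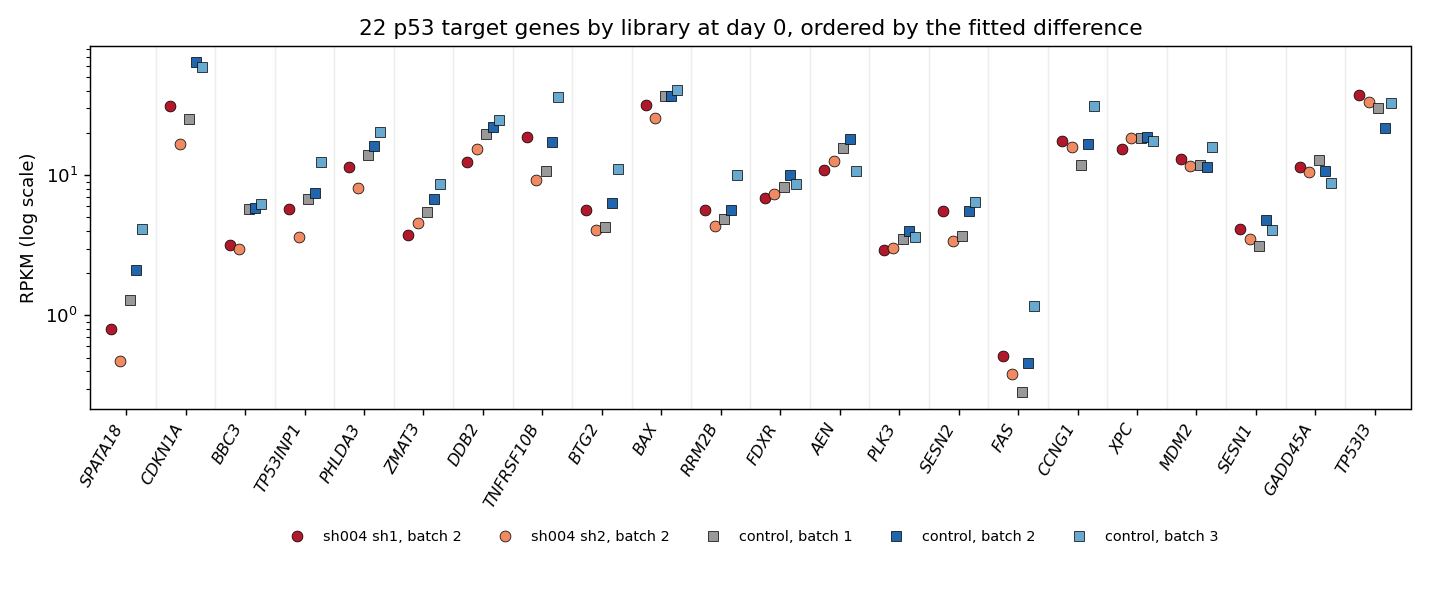
RPKM (log scale) of the 22 p53 target genes in the 5 day 0 libraries, with sh004 as circles left of the controls as squares, ordered from the lowest to the highest fitted log2 difference. For 9 genes both circles lie below all 3 squares, and TP53I3 is the gene with both circles above them.

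For ribosomal protein, histone and reference genes, the batch 1 control lay further from the batch 2 control than either sh004 library did. Of 76 ribosomal protein genes, 75 were higher than the control mean (98.7%, beside 40.9% of all genes). Of these genes 27 lay above all controls (35.5%, beside 7.66%), and the list median was 0.46. Against the batch 2 control the median was 0.02, and the batch 1 control lay 0.90 below that control. Histone genes had a median of -1.0 against all controls and -0.02 against the batch 2 control, with the batch 1 control 2.38 above it. The reference genes, TBP and GAPDH among them, had a median of 0.22 against all controls and -0.01 against the batch 2 control. In the same order, cell cycle genes had medians of 0.17 and 0.02, interferon genes of -0.08 and 0.09, amino acid stress genes of 0.02 and 0.21, immediate early genes of 0.00 and 0.12, retinoid genes of -0.23 and 0.06 and genes of the RNA interference machinery of 0.05 and 0.04.

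The genes of the axis named in the study, the deubiquitinase USP36, the chromatin remodeller CHD7 and the transcription factor SOX9, overlapped between the groups, as did SOX4, the coding neighbour of CASC15. SOX9 was at 12.05 and 9.65 RPKM with sh004 and at 10.4, 4.40 and 22.3 RPKM in controls. Its log2 difference was 0.08 against all controls and 1.20 against the batch 2 control (limma adjusted p = 1.00 for both). CHD7 was at 17.9 and 13.4 RPKM with sh004 and at 24.6, 18.0 and 14.8 RPKM in controls, and USP36 at 14.4 and 13.7 RPKM with sh004 and at 15.035, 12.6 and 9.53 RPKM in controls.

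The libraries of the hairpins were also set against each other. Each hairpin has 1 library at day 0, so a difference between hairpins and one between libraries cannot be told apart, and of the 10 pairs of day 0 libraries this one had the fewest genes 2-fold apart. sh1 was at least 2-fold above sh2 for 481 genes (2.47%) and below it for 298 (1.53%). By size of the difference, the first genes on the sh1 side were the chemokine CCL2, the scramblase-family gene ANO9, the adhesion molecule ICAM1 and the stress-response gene IER3. CCL2 was at 258 RPKM with sh1 and 5.05 with sh2, against 1.11, 1.08 and 910 RPKM in the controls of batches 1, 2 and 3. ICAM1 was at 14.0 and 0.209 RPKM with sh1 and sh2, against 0.136, 0.102 and 32.2 RPKM in controls. IER3 was at 19.1 and 0.489 RPKM with sh1 and sh2, against 0 (no read), 0.0927 and 35.1 RPKM in controls. In all 3 genes, and in ANO9, sh1 and the batch 3 control were high and the other 3 libraries low.

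This was not limited to the 4 genes. Of the 481 genes higher in sh1 than in sh2, 170 (35.3%) were also at least 2-fold higher in the batch 3 control than in the batch 2 control, which holds for 5.37% of all genes. They are 16.3% of the genes higher in the batch 3 control. Another 54 of the 481 (11.2%) were at least 2-fold lower in the batch 3 control, which holds for 3.80% of all genes. Of the 298 genes lower in sh1 than in sh2, 28 (9.40%) were 2-fold higher and 60 (20.1%) 2-fold lower in the batch 3 control. These pairs of libraries share no library, and the set was compared after the values of the 4 genes were known. On the sh2 side PRKCA, protein kinase C alpha, was at 1.14 RPKM with sh1 and 33.6 with sh2, against 10.9, 10.7 and 19.9 RPKM in controls. SYK, a tyrosine kinase of immune receptor signalling, was at 2.28 and 15.9 RPKM with sh1 and sh2, against 10.2, 12.01 and 9.29 RPKM in controls. For both genes the sh1 library lay below the other 4. S100A10 was at 14.7 and 73.4 RPKM with sh1 and sh2, against 27.2, 52.1 and 75.7 RPKM in controls, and the pseudogene RPL41P5 had 0 and 36 reads with sh1 and sh2.

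The same hairpins were also sequenced after 7 days of retinoic acid, at a dose the labels give as 10 mM, with 2 sh004 and 2 control libraries that are not in the day 0 contrast. They share its filter on low values and its estimate of the spread, and so entered the p-values by which the day 0 genes were ranked. They come from lines with the same hairpins. The sh004 libraries are again of batch 2, and the controls are of batches 1 and 2. A difference of batch 1 from batch 2 can therefore enter both the day 0 and the day 7 contrast. limma called 0 genes between sh004 and control at day 7 (0.0%), with 1564 at an unadjusted p under 0.05 (8.04%). limma-voom also called 0, with 1593, and the batch block called 44, none of them among the 20. Of the 10 higher genes, 7 were again higher at day 7 (37.3% of all genes were) and 5 did not overlap (10.8%). Of the 10 lower genes, 10 were again lower (62.7% of all genes were) and 8 did not overlap (22.1%). Over all that met the rule, 38 of 57 higher genes were again higher and 130 of 139 lower genes again lower. Without overlap at day 7 there were 15 of the 57 and 80 of the 139.

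TULP3 was at 20.2 and 24.3 RPKM with sh004 and at 11.9 and 12.2 RPKM in controls at day 7 (log2 difference 0.85, SE 0.22, limma adjusted p = 0.452), with the sh004 level as at day 0. COX7C was at 68.1 and 70.9 RPKM with sh004 and at 22.1 and 32.6 RPKM in controls (log2 difference 1.36, SE 0.31, adjusted p = 0.406). PLPPR3 was at 4.88 and 16.9 RPKM with sh004 and at 28.0 and 28.8 RPKM in controls (log2 difference -1.58, SE 0.56, adjusted p = 0.550), with sh1 again below sh2. PRPH overlapped at day 7, at 1.60 and 3.66 RPKM with sh004 and 3.34 and 4.76 RPKM in controls. JAK1 and ASS1 overlapped as well, at log2 differences of -0.03 and -0.06. MAPK11, at 18.3 and 21.2 RPKM with sh004 and 38.0 and 50.8 RPKM in controls, did not. The p53 list had a median of -0.13 at day 7, close to that of all genes at -0.15. limma called 0 genes for a difference between the day 7 and the day 0 effect, with 284 at an unadjusted p under 0.05 and 264 by limma-voom, which also called 0, while the batch block called 2.

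In spheres, with 2 sh004 libraries and 1 control, 19 of 14711 genes were called (0.129%), none of them among the 20. Of the 10 higher genes 4 were higher in spheres too (40.4% of all genes were), and of the 10 lower genes 5 were lower (59.6%). TULP3 was at 6.22 and 4.67 RPKM in sh004 spheres and at 5.43 RPKM in the control sphere, a log2 difference of -0.01. PLPPR3 was at 89.7 and 58.2 RPKM in sh004 spheres and at 82.1 RPKM in the control sphere (log2 difference -0.18). COX7C was above the control there too, at 134 and 108 RPKM in sh004 spheres against 68.8 RPKM (log2 difference 0.80, SE 0.24, limma adjusted p = 0.151), and BASP1 below it, at 6.50 and 13.0 RPKM against 38.8 RPKM (log2 difference -2.02, SE 0.42, adjusted p = 0.109). The p53 list median in spheres was 0.51, on the other side from day 0.

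CCL2, ANO9, ICAM1 and IER3, which only sh1 and the batch 3 control held at 10 RPKM or more among the 5 day 0 libraries, were above control with both hairpins in these other libraries. CCL2 was at 863 and 796 RPKM with sh004 and at 57.5 and 34.4 RPKM in controls at day 7, and at 2254 and 1621 RPKM in sh004 spheres against 13.1 RPKM in the control sphere. ICAM1 was at 408 and 90.1 RPKM with sh004 and at 6.29 and 4.31 RPKM in controls at day 7. limma called none of these 4 genes at day 7 (adjusted p = 0.587 to 0.741) or in spheres (adjusted p = 0.1002 to 0.180).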

How the data were processed

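The authors deposited RPKM per gene for 63677 genes. The submitters' processing notes name build hg19 and the tools featureCounts, Subread and TopHat. Their versions and the annotation release are not given in the sources used here. Of the gene IDs, 52181 matched reference gene names. Whole reads, recovered from RPKM and gene length, came within 0.01 of whole numbers for every monolayer value. In the deposited sphere table RPKM rested on 10 totals used in rotation, so sphere RPKM was recomputed from reads with each library's own total.

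A gene was tested if at least 2 libraries of its table reached RPKM 1 (19461 monolayer, 14711 sphere). Values of log2(RPKM + 0.5) were modelled in R 4.3.3 using limma 3.58.1, allowing a mean-variance trend, over all 15 monolayer or 5 sphere libraries (9 and 2 residual degrees of freedom), with Benjamini-Hochberg adjustment over all genes. For the same-batch comparison the batch 2 control formed a group of its own, assumed to vary like the others. The scripts were tested on simulated data.

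Libraries were grouped by title. The titles number the batches: same-batch control and CASC15-003 libraries deviated together (r = 0.716 to 0.942 over 16 pairs), different batches mostly not (median -0.79 over 29 pairs), so a batch block was fitted too. Deviations were taken from group means, so positive r within a batch brings negative r between batches. The highest r between batches was 0.744. The 20 genes were named by the rule given with them, and from each list the 3 members with the smallest p; MAP1B, STMN2, INA, CRMP1, TP53INP1, CDKN1A, MDM2, HAND2 and DBH were added after their values were seen. Some genes that the rule names are not reported here. Members and lists were chosen with earlier results of these data known. Hairpin sites were placed on GENCODE transcripts (GRCh38) and overlaps between genes were read from the same annotation. Alternatives covered pseudocount, filter, scaling, tool, libraries in the fit, batch block and leaving out each library.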

Additional observations from a re-analysis of the deposited data

How the results depend on the processing

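The call of 0 genes at day 0 held under pseudocounts of 0.1 and 1, a filter at RPKM 5, median-ratio and quantile scaling, limma-voom, fits of fewer libraries and leaving out any library (0 to 0), against all controls and against the batch 2 control alone. Without a filter 6 genes were called against all controls, each with at most 6 reads per group, 121 against the batch 2 control, 69 at day 7 and 19 for the day 7 minus day 0 effect. The batch block called 0 genes at day 0, 44 at day 7 and 2 for the difference between days; it could not be added to the same-batch comparison. With the block, leaving out 1 library gave 0 to 2 calls at day 0, the 2 without sh004 sh2 being SNORD48 (log2 difference 3.59) and PTMAP4 (-3.98). Without single libraries day 7 gave 0 to 4 calls (4 without sh004 sh1, 1 without sh004 sh2 or CASC15-003 sh1 of batch 3 at day 0) and the difference between days 0 to 1. Spheres gave 19 calls, 162 with the deposited RPKM and 0 to 122 without single libraries (0 without either sh004 sphere). sh1 and sh2 were 2-fold apart for 779 genes, 1851 with a pseudocount of 0.1, 393 with 1 and 276 with the RPKM 5 filter. Of 1692 values of 68 named genes, 1685 kept their direction and none was called; the exceptions were SOX4 (0.1523) and SDHA (-0.0143) with the block and, over single libraries left out, SOX9 (-0.4828 without control batch 2, -0.0734 without sh1, up to 0.6277), DICER1 (-0.0735 without sh1, up to 0.5213), SCARNA10 (-0.0332 without control batch 3, up to 0.7687) and RARB (0.0954 without control batch 3, down to -0.8682). Without the block, leaving out libraries other than the day 0 sh004 and control libraries cannot change a day 0 difference. Many of these directions, and of the list medians, were therefore fixed in advance. Of 499 list medians 82 moved by more than the spread between the hairpins. The causes were not tested.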

Other observations

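Among genes of the other lists, DUSP5, a phosphatase that dampens ERK signalling, was at 4.78 and 4.42 RPKM with sh004 and at 3.31, 2.28 and 0.848 RPKM in the controls of batches 1, 2 and 3. Both sh004 libraries lay above all controls, which holds for 7.66% of all genes (log2 difference 1.07, SE 0.41, limma adjusted p = 1.00, and 0.87 against the batch 2 control). At day 7 both lay below both controls, at 3.83 and 3.95 RPKM against 5.45 and 4.32 RPKM.

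PSAT1, an enzyme of serine synthesis, was at 52.1 and 38.5 RPKM with sh004 and at 28.6, 34.0 and 38.1 RPKM in controls at day 0, where sh2 lay within 0.5 RPKM of the batch 3 control. At day 7 it was at 23.7 and 26.3 RPKM with sh004 and at 9.52 and 14.5 RPKM in controls (log2 difference 1.06, adjusted p = 0.454). RRM2, the small subunit of ribonucleotide reductase, was at 84.2 and 90.9 RPKM with sh004 and at 53.1, 64.8 and 44.8 RPKM in controls, with a log2 difference of 0.70 against all controls and 0.43 against the batch 2 control (adjusted p = 1.00 for both).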
